A study of Mus musculus with 21 samples.

Results

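Protein kinase C (PKC) enzymes are serine/threonine kinases that carry signals from receptors coupled to phospholipase C, and 8 of their genes, *Prkca*, *Prkcb*, *Prkcd*, *Prkce*, *Prkch*, *Prkcq*, *Prkci* and *Prkcz*, were followed here. They were taken by gene symbol from the 35266 genes listed in the count and TPM tables. All 8 were found in both tables, and 7 passed the count filter (CPM, counts scaled to a common library size, over 1 in at least 3 libraries) that left 16513 genes for testing.

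The data are RNA-Seq libraries from AGRP and POMC neurons of the hypothalamic arcuate nucleus, which drive and restrain feeding respectively. Neurons came from fed mice or from mice deprived of food for 24 hours (FD), with 5 fed and 6 FD mice for AGRP neurons and 5 of each for POMC neurons. AGRP neurons were taken from NPY-hrGFP mice and POMC neurons from Pomc-GFP mice, all male, on a C57BL/6J background and between postnatal day 46 and 56. All mice, fed ones included, had been moved to a fresh cage 24 hours earlier, and FD mice had water alone. Each library held the fluorescent neurons picked by hand from 1 mouse, between 44 and 214 cells, so cell identity rests on the reporter, and the AGRP and POMC neurons come from different transgenic lines. In such pools, fewer cells carrying a transcript and less transcript per cell cannot be told apart.

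Classical PKC isozymes, encoded by *Prkca* and *Prkcb* among the genes followed, need both calcium and the membrane lipid diacylglycerol, which phospholipase C releases together with the calcium-mobilizing messenger inositol trisphosphate. The isozymes encoded by *Prkcd*, *Prkce*, *Prkch* and *Prkcq* need diacylglycerol but not calcium. The atypical isozymes of *Prkci* and *Prkcz* need neither and act with scaffold proteins of cell polarity, and in brain *Prkcz* is also known for a short transcript from an internal start that encodes the constitutively active kinase PKMzeta. In neurons PKC enzymes are known to modulate ion channels, transmitter release and synaptic strength.

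The promoter stretches of *Prkca* and *Prkci* are shown because these were the members with robust counts whose levels in FD mice did not overlap between AGRP and POMC neurons. Each runs 5′ to 3′ on the gene's strand and ends just before the first transcribed base in RefSeq or GENCODE, whichever lies further upstream, with capitals marking the GC box GGGCGG on either strand. The sequences are RefSeq's, on build GRCm38.p6, from chr11:108343929-108344138 on the minus strand for *Prkca* and from chr3:30995521-30995746 on the plus strand for *Prkci*.
Prkca: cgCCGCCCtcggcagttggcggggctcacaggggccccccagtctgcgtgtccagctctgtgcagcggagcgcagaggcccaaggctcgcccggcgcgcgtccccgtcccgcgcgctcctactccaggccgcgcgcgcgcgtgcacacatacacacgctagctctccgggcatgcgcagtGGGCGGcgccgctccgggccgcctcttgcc
Prkci: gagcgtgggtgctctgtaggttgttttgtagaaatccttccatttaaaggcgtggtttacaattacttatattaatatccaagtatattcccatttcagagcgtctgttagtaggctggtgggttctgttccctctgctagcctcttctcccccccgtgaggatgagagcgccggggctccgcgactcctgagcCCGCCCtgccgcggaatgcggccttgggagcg

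The *Prkca* stretch of 210 bases held 2 GC boxes and the *Prkci* stretch of 226 bases held 1. In the full RefSeq windows, from 250 bases before to 50 bases after the start, GC made up 75.3% of the *Prkca* window with 42 CpG pairs, and 59.7% of the *Prkci* window with 22. The medians over all 32851 mouse windows were 52.7% GC and 7 CpG pairs, and 35.7% of all windows held a GC box. Neither window matched the E-box CACGTG, the TGACG half-site of cAMP response elements, the AP-1 site TGANTCA, the forkhead site GTAAACA, the TATAAA box or the CCAAT box, which were found on either strand in 7.15%, 20.8%, 7.81%, 3.65%, 13.6% and 37.4% of all windows. RefSeq windows were matched for 6 of the 8 members, *Prkce* and *Prkch* being the members without one.

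Libraries held between 9822298 and 37663979 gene counts (median 19189780), so that 3 counts, taken as the detection floor, equal 0.0797 to 0.305 CPM. This floor covers counting error only, because amplified reads without molecular identifiers are not independent molecules. The labelled cell types matched their defining peptides, with *Npy* the highest of *Agrp*, *Npy* and *Pomc* in AGRP libraries (mean 12896 TPM fed and 35821 TPM FD) and *Pomc* in POMC libraries (16029 and 10743 TPM). The summed level of 24 markers of non-neuronal cells ranged from 41.7 to 65.6 TPM in fed AGRP, 32.6 to 51.4 in FD AGRP, 35.4 to 54.5 in fed POMC and 31.1 to 65.8 in FD POMC libraries, mostly from the myelin gene *Mbp*. Oligodendrocyte precursor markers averaged at most 0.864 TPM in any group.

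*Prkce* had the highest mean level of the family in all 4 groups, and 5 members, *Prkca*, *Prkcb*, *Prkce*, *Prkci* and *Prkcz*, had group means of 26.9 TPM or more throughout. In TPM (a scaled transcript abundance that accounts for gene length), fed AGRP neurons ordered these 5 as *Prkce* (176 ± 20.1, SD, n = 5), *Prkca* (66.3 ± 8.64), *Prkci* (52.7 ± 3.31), *Prkcb* (51.4 ± 4.64) and *Prkcz* (27.8 ± 7.51). The *Prkci* and *Prkcb* ranges overlapped, while each other neighbouring pair in that order was separate in every library. *Prkcd*, *Prkch* and *Prkcq* averaged below 1 TPM in fed AGRP neurons and their ranges overlapped.

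In FD AGRP neurons *Prkce* (116 ± 25.6 TPM, SD, n = 6) and *Prkca* (115 ± 13.8 TPM) had nearly the same mean, *Prkce* being the higher of the pair in 3 of 6 libraries. *Prkcb* (32.8 ± 9.90 TPM), *Prkci* (32.4 ± 9.90 TPM) and *Prkcz* (29.7 ± 10.6 TPM) followed with overlapping ranges, all below the lowest *Prkca* library. In POMC neurons *Prkce* was again alone at the top (186 ± 46.0 TPM fed, 219 ± 18.8 TPM FD, n = 5 each), followed by *Prkci* (66.6 ± 23.6 and 60.0 ± 3.19 TPM) and *Prkcb* (49.1 ± 15.9 and 60.0 ± 9.28 TPM), whose ranges overlapped. *Prkca* (27.4 ± 10.2 and 37.2 ± 8.88 TPM) had a lower mean than these in POMC neurons, overlapping *Prkcb* in fed mice, and in both conditions *Prkcz* (26.9 ± 7.81 and 36.8 ± 5.94 TPM).

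**Figure D1:**
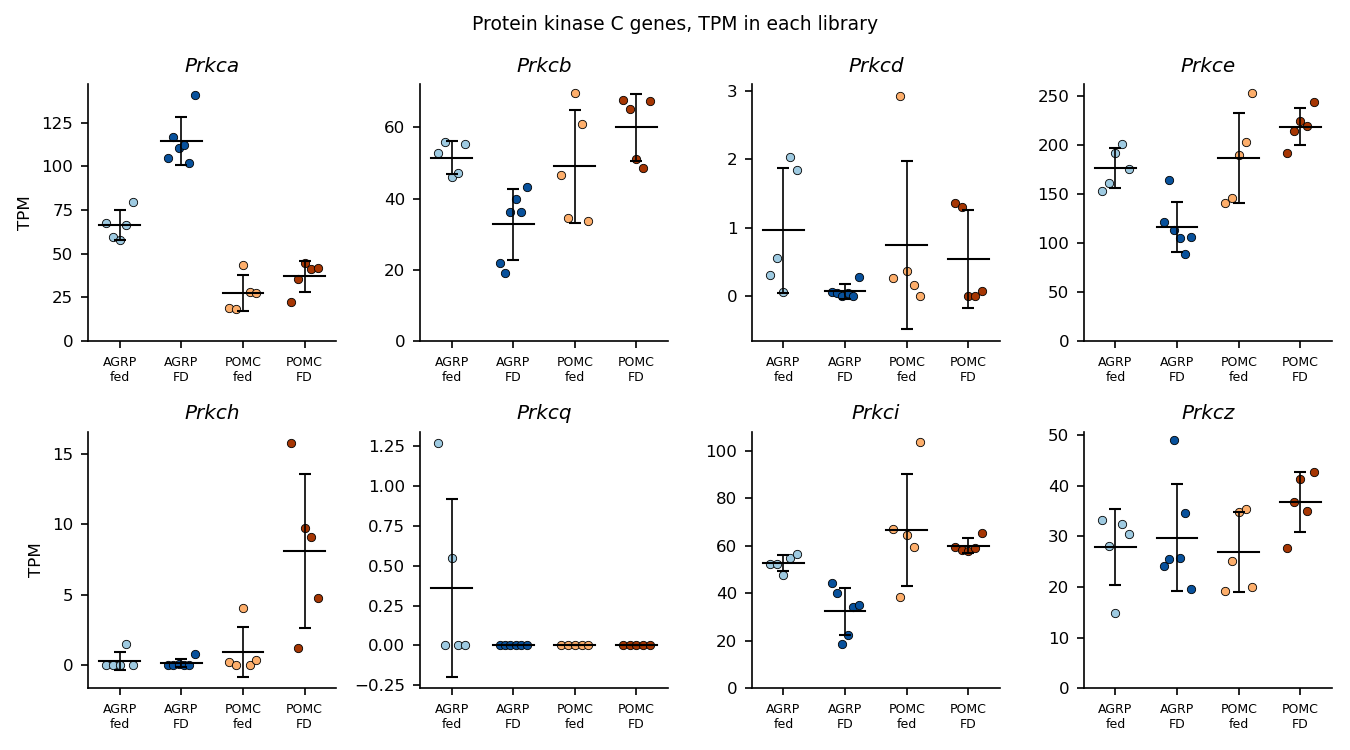
TPM of the 8 protein kinase C genes in each of the 21 libraries (points), grouped on the x axis by cell type and condition, with the group mean (bar) and SD (whiskers), on a separate linear y axis for each gene. *Prkca* lies between 102 and 141 TPM in FD AGRP libraries, above the highest fed AGRP library at 79.9 TPM, and *Prkch* passes 5 TPM only in FD POMC libraries.

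*Prkca*, the gene of the classical isozyme PKC alpha, was the member that rose in AGRP neurons with food deprivation. It lies at chr11:107933387-108343928 (mm10, ENSMUSG00000050965, minus strand, 18 merged exons), and no exon of it or of the other 7 members overlaps an exon of another gene in the GENCODE M21 basic annotation. Its normalized CPM in the 5 fed AGRP libraries were 159, 158, 139.9, 160.4 and 198, and the 6 FD libraries ran from 269.8 through a median of 343 to 386. Every FD library lay above every fed one.

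The mean of *Prkca* went from 163 ± 21.4 to 336 ± 48.9 normalized CPM (SD, n = 5 and 6), a log2 fold change of 1.04 (SE 0.19, q = 0.000289, edgeR quasi-likelihood test with Benjamini-Hochberg adjustment over all genes tested), or 2.06-fold. The approximate 95% interval of this log2 difference was 0.68 to 1.41. It was the only one of the 7 members tested with q under 0.05, 10.3% of all genes tested reaching that threshold (5.87% higher and 4.43% lower in FD). It also met the stricter criteria (absolute log2 fold change over 1 and mean over 20 CPM in a group) that 4.46% of genes met. The fold change lay close to that cutoff, running on the log2 scale from 0.99 to 1.12 with 1 library left out and from 0.78 to 1.09 over 13 alternatives. Non-overlap between the 2 groups was found for 7.65% of all genes.

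*Prkca* was higher in FD than in fed mice in each of 3 sets of AGRP libraries, a division derived here from the spike-in volumes and cell numbers in the labels. Normalized CPM averaged 295.8 in FD against 159 in fed mice with 1 µl (1 library each), 383 against 149 with 10 µl (2 each), and 319 against 179 with a volume of 0.02 µl per sorted cell (3 against 2). The libraries with a volume per sorted cell, FD replicate 2 included, came from mice of postnatal day 46 or 47. The other AGRP mice were at day 51 to 55, so this set and age cannot be told apart. FD replicate 2, with 50 cells and 1 µl, meets both the first and the last description. With it in the 1 µl set the means were 333 against 159 there (2 against 1) and 294 against 179 in the last set (2 each). *Prkca* kept q under 0.05 without any 1 of the 11 AGRP libraries (q 0.00019 to 0.0018). Scaling by the spike-in counts, the exception among 13 alternatives, left a log2 fold change of 0.80 with q = 1, in a fit that called 97 genes in all. The summed non-neuronal markers were lower in FD than in fed AGRP libraries at the median, 43.2 against 55.8 TPM. *Mbp*, most of that sum, differed little in normalized CPM (78.0 in fed and 72.3 in FD, log2 −0.11, q = 0.831). The only marker called, *Aldh1l1* of astrocytes, was higher in FD at low levels (0.0312 and 2.26, log2 5.91, q = 0.0284). The other astrocyte markers were not called, *Gfap* (log2 −0.50) and *Aqp4* (−0.38) being lower and *Slc1a3* (0.30) higher in FD. The median of the 4 was −0.04. The part of non-neuronal cells in the results was not tested.

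The partner classical gene, *Prkcb* (PKC beta, chr7:122289297-122634402, plus strand), showed no such increase in FD AGRP neurons. Its 5 fed libraries held 51.1, 61.1, 46.0, 47.1 and 56.8 normalized CPM, and the FD libraries ran from 23.2 through 43.0 to 55.9. FD replicates 1 and 2 were the low ones, and the groups overlapped. The log2 difference was −0.40 (SE 0.24, q = 0.362).

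Among the calcium-independent isozymes, *Prkce* (PKC epsilon, chr17:86167785-86657919, plus strand) was lower on average in FD AGRP neurons without passing the threshold. Its normalized CPM were 260.1, 307, 335, 352 and 316 in fed mice and 186, 230.4 and 374 at the lowest, median and highest of the FD mice. One FD library, replicate 2, lay above all 5 fed ones, while the other 5 FD libraries lay below every fed library. The log2 difference was −0.34 (SE 0.15, q = 0.173), and without FD replicate 2, the library with the fewest sorted AGRP neurons (50), it was −0.50 (q = 0.0200).

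*Prkcd*, *Prkch* and *Prkcq* were near the floor in AGRP neurons. *Prkcd* (PKC delta, chr14:30595356-30626210, minus strand) had 1 to 39 counts per fed library and 0 to 4 counts per FD library, of which 5 of 6 held at most 3. *Prkch* (PKC eta, chr12:73584797-73778185, plus strand) had 40 counts in fed replicate 4, 15 in FD replicate 6 and at most 3 in every other AGRP library. *Prkcq* (PKC theta, best known from T cells, chr2:11172108-11301222, plus strand) had counts in 2 of the 21 libraries, both fed AGRP, with up to 27 counts, and was the member that did not pass the filter. The differences of *Prkcd* (log2 −3.44, SE 1.58, q = 0.188) and *Prkch* (log2 −0.71, SE 1.27, q = 0.808) were not resolved at these counts.

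The atypical genes did not pass the threshold in AGRP neurons either. *Prkci* (PKC iota, chr3:30995747-31052959, plus strand) stood at 66.9, 75.5, 63.0, 72.1 and 76.6 normalized CPM in the fed libraries and at 29.4, 53.1 and 68.8 at the lowest, median and highest FD library. Only FD replicate 2 exceeded the lowest fed libraries, and the log2 difference was −0.47 (SE 0.21, q = 0.177). *Prkcz* (PKC zeta, chr4:155260129-155361361, minus strand) spread widely in both groups, from 20.2 to 44.2 normalized CPM in fed and from 30.1 to 78.7 in FD mice, with a log2 difference of 0.35 (SE 0.26, q = 0.478). The deposited counts sum all transcripts of a gene, so the 3 transcript starts annotated for *Prkcz*, the internal one included, were not separated.

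The scale mattered for the members below *Prkca*. In TPM, the *Prkcb* ranges of fed (46.0 to 56.0) and FD (19.1 to 43.2) AGRP libraries and the *Prkci* ranges (47.7 to 56.6 against 18.9 to 44.2) did not overlap, whereas both overlapped in normalized CPM. TPM ranges of these groups did not overlap for 7.97% of all genes tested. With limma on log2(TPM + 1), a scale that lowered the median difference of all genes to −0.28, *Prkca* (0.78, q = 0.0151), *Prkce* (−0.61, q = 0.0132) and *Prkci* (−0.74, q = 0.0311) all passed. That fit called 11.8% of all genes, 3.17% higher and 8.60% lower in FD. Less that median, the 3 log2 differences were 1.06, −0.34 and −0.47, close to the 1.07, −0.32 and −0.44 of the normalized counts less their own median.

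In POMC neurons none of the 7 members tested changed with food deprivation by the edgeR test, where 0.375% of all genes had q under 0.05. At an unadjusted p under 0.05 there was 1 member of 7, *Prkch*, against 12.2% of all genes. Limma on log2(TPM + 1) also called *Prkch* (q = 0.0421), in a fit that called 0.412% of all genes. *Prkch* held 0.442, 0.0740, 5.54, 0 and 0.513 normalized CPM in the fed libraries and 21.5, 1.67, 13.2, 12.1 and 6.45 in the FD libraries. Fed replicate 3 lay above 1 FD library, so the groups overlapped, while the other 4 fed libraries lay below all FD libraries. No member was without overlap in POMC neurons, against 2.35% of all genes.

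The means of *Prkch* in POMC neurons were 1.31 ± 2.37 and 11.0 ± 7.48 normalized CPM (SD, n = 5 each), with a log2 difference of 3.05 (SE 1.36, q = 0.349) and an approximate 95% interval of 0.38 to 5.72. Within the 1 µl spike-in set, the only POMC set with both conditions, it averaged 12.1 in FD and 2.02 in fed mice (3 libraries each). The other POMC sets held mice of 1 condition, so that set and condition cannot be told apart there. The summed non-neuronal markers had a median of 38.2 TPM in fed and 58.4 TPM in FD POMC libraries, and their part in this difference was not tested.

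*Prkca* did not pass the test in POMC neurons. It stood at 61.5, 55.7, 113, 74.7 and 70.9 normalized CPM in fed and 58.7, 90.8, 115, 105.8 and 108 in FD libraries, with overlapping groups. The log2 difference was 0.35 (SE 0.19, q = 0.480, interval −0.02 to 0.72), and in the 1 µl set the means were 88.3 in FD and 86.2 in fed mice. For *Prkcb*, *Prkce*, *Prkci* and *Prkcz* the log2 differences lay between −0.26 and 0.34, with q from 0.668 to 0.856. *Prkcd* held at most 90 counts in any POMC library, and its log2 difference of −0.65 had an SE of 1.52.

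The difference between the responses of the cell types was tested as an interaction, and no member passed (0 of 7, against 6.71% of all genes). The unadjusted p was under 0.05 for 3 of 7 members, against 20% of all genes: *Prkca* (interaction on the log2 scale 0.69, SE 0.26, q = 0.118), *Prkce* (−0.47, SE 0.22, q = 0.227) and *Prkch* (−3.76, SE 1.84, q = 0.249). The rise of *Prkca* in AGRP neurons was therefore not shown to exceed that in POMC neurons over all genes tested. *Prkce* passed in this test without AGRP FD replicate 2 (−0.62, q = 0.0494) and *Prkch* without POMC fed replicate 3 (−6.10, q = 0.0496).

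**Figure D2:**
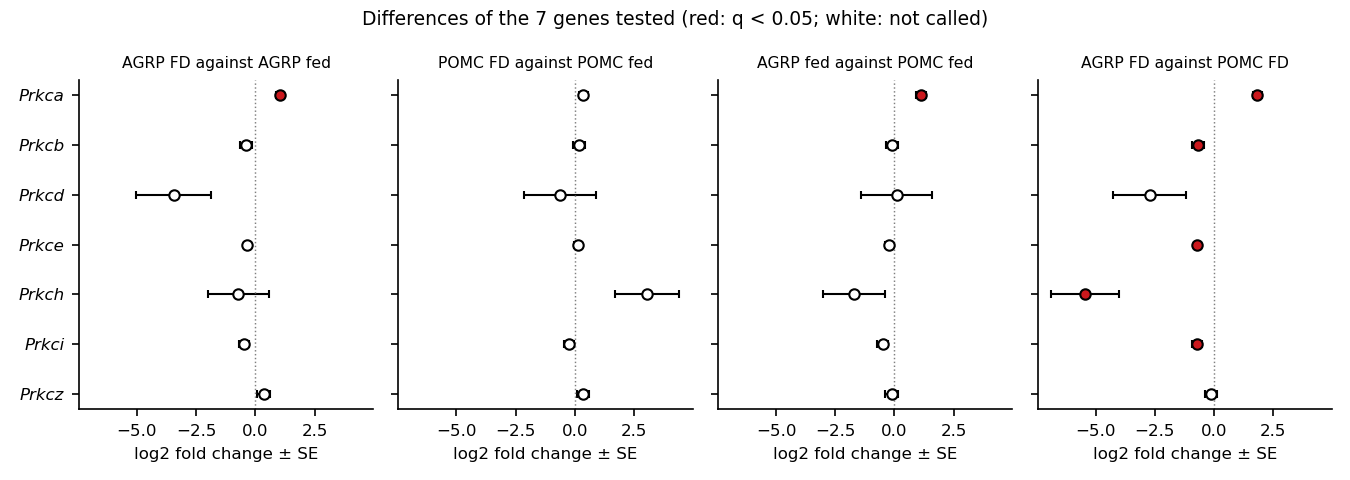
Log2 fold change (x axis, points) with its standard error (whiskers) for the 7 PKC genes tested (y axis) in 4 comparisons, from the edgeR quasi-likelihood fit, with q under 0.05 in red. *Prkca* is red and positive in 3 panels, while the 4 other red points are all negative and in the comparison of FD AGRP with FD POMC neurons.

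Between cell types, *Prkca* separated AGRP from POMC neurons already in fed mice. The 5 fed AGRP libraries (139.9 to 198 normalized CPM) lay above the 5 fed POMC libraries (55.7 to 113), with a log2 difference of 1.12 (SE 0.19, q = 0.000146). It was the only member of 7 to pass in fed mice, where 7.57% of all genes had q under 0.05 and 8.93% showed no overlap. The remaining 6 had q of 0.188 or more, *Prkci* coming closest (log2 −0.51, SE 0.22). *Prkch* passed (log2 −5.36, q = 0.0388) when AGRP fed replicate 4 was left out, the library that held 40 of its counts.

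In FD mice 5 of the 7 members differed between AGRP and POMC neurons, where 18.6% of all genes had q under 0.05. Of these 5, 1 was higher and 4 lower in AGRP neurons, against 9.28% and 9.27% of all genes, and *Prkca* alone met the stricter criteria, which 8.11% of genes met. *Prkca* was 3.51-fold higher in AGRP neurons (336 ± 48.9 against 95.8 ± 22.6 normalized CPM, log2 1.81, SE 0.19, q = 2.08e-08), and the lowest AGRP library, 269.8, lay above the highest POMC library, 115. This difference shares its FD AGRP libraries with the comparison of FD with fed AGRP neurons, so the 2 are not independent. The summed non-neuronal markers had a median of 43.2 TPM in FD AGRP and 58.4 TPM in FD POMC libraries, and their part in the differences between these groups was not tested.

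The other 4 were lower in FD AGRP than in FD POMC neurons. *Prkce* stood at 363, 394, 420, 405 and 456 normalized CPM in the FD POMC libraries, against 186 to 374 in FD AGRP, where replicate 2 alone reached the POMC range (log2 −0.72, SE 0.15, q = 0.000871). *Prkci* stood at 84.7, 80.8, 81.2, 81.9 and 92.4 in FD POMC libraries, all above the highest FD AGRP library at 68.8 (log2 −0.72, SE 0.21, q = 0.0150). *Prkch* was at or under 1.12 normalized CPM in FD AGRP and at or above 1.67 in FD POMC libraries (log2 −5.46, SE 1.43, q = 0.00628). These 3 kept q under 0.05 without any 1 of the 11 FD libraries.

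*Prkcb* was at 51.1 to 73.1 normalized CPM in FD POMC and 23.2 to 55.9 in FD AGRP libraries, which overlapped (log2 −0.68, SE 0.24, q = 0.0470). This call rests on single libraries: q stayed under 0.05 in 3 of the 11 fits that left out 1 FD library (range 0.0227 to 0.104). *Prkca*, *Prkch* and *Prkci* were the members without overlap between FD AGRP and FD POMC libraries, against 11.4% of all genes. *Prkcd* (q = 0.246) and *Prkcz* (log2 −0.12, SE 0.26, q = 0.817, interval −0.62 to 0.39) did not pass.

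With spike-in scaling the median log2 difference of all genes was 1.10 for FD AGRP against FD POMC neurons and −1.11 for FD against fed POMC neurons. On that scale *Prkcb*, *Prkce* and *Prkci* were higher rather than lower in FD AGRP than in FD POMC neurons (log2 0.30, 0.46 and 0.34, each with q over 0.05). Less that median, the values were −0.80, −0.64 and −0.76. *Prkca* (2.89, q = 0.0139) and *Prkch* (−5.07, q = 0.0311) passed on that scale with the same direction as above. Spike-in volume, and among AGRP libraries the spike-in mix, differed between libraries. In POMC neurons the 10 µl libraries were all FD and those with a volume by cell number all fed. The part of the spike-in sets in the shifts on this scale was not tested.

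The make-up of the family was described by each gene's share of the summed TPM, from the same values and without a test. *Prkca* accounted for 17.6% (16.1 to 19.97%) of the summed TPM of the 8 genes in fed AGRP neurons and 35.2% (32.0 to 40.7%) in FD AGRP neurons. It accounted for 7.55% (6.30 to 10.7%) in fed and 8.79% (5.82 to 10.4%) in FD POMC neurons. No library of any group fell between the fed and FD AGRP ranges.

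*Prkce* held 46.9% (42.4 to 53.4%) of the summed TPM in fed and 35.4% (30.0 to 44.8%) in FD AGRP neurons, and 52.0% and 51.9% in fed and FD POMC neurons. The summed TPM itself was 376 ± 24.0 in fed and 326 ± 26.0 in FD AGRP neurons, and 358 ± 75.0 and 421 ± 29.3 in fed and FD POMC neurons (SD). The ratio of *Prkca* to *Prkce* TPM was 0.380 ± 0.067 in fed and 1.02 ± 0.216 in FD AGRP neurons, ranges 0.302 to 0.454 and 0.715 to 1.33. In POMC neurons it was 0.148 ± 0.047 and 0.169 ± 0.032. This ratio is taken within a library, so no scaling of libraries enters it.

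**Figure D3:**
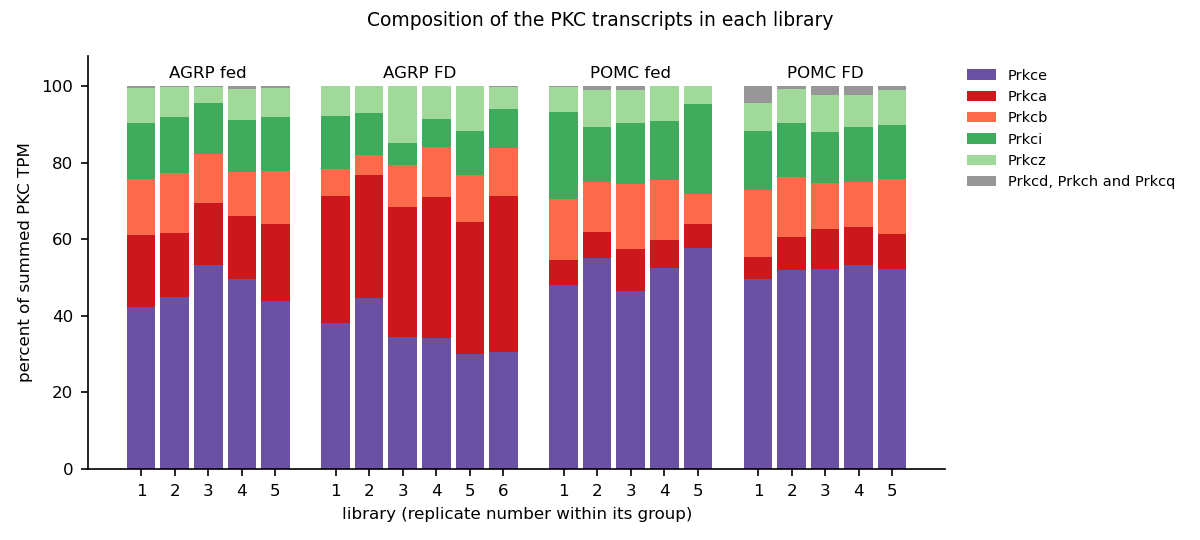
Percent of the summed TPM of the 8 PKC genes (y axis) taken by each gene in each library (bars, replicate number on the x axis), by group. The red *Prkca* segment spans 32.0 to 40.7% in the 6 FD AGRP libraries and 16.1 to 19.97% in the 5 fed AGRP libraries.

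**Figure D4:**
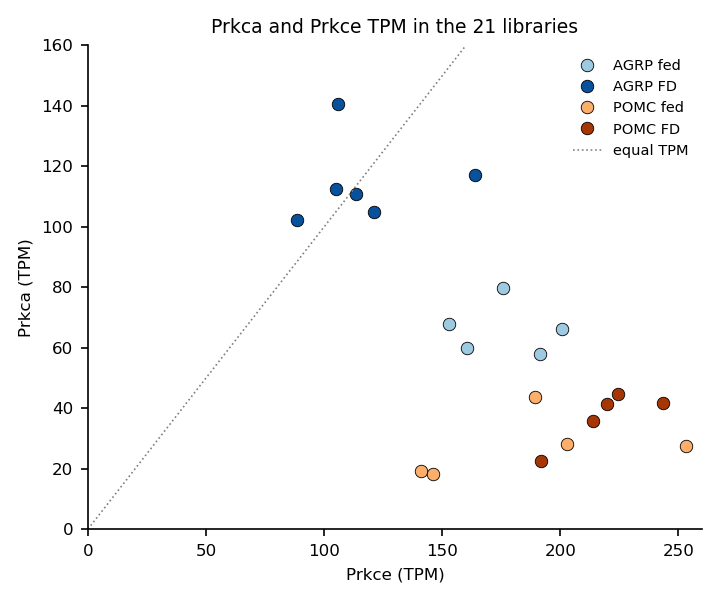
*Prkca* TPM (y axis) against *Prkce* TPM (x axis) in each of the 21 libraries (points, coloured by group), with a dotted line of equal TPM. FD AGRP libraries lie around the line of equality, with ratios of 0.715 to 1.33, and POMC libraries lie far below it.

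Genes that act around PKC were described from 7 lists. At q under 0.05, 5.87% of all genes tested were higher and 4.43% lower in FD than in fed AGRP neurons. Of 14 tested genes of the Gq family and phospholipase C, which make diacylglycerol, 1 rose and 2 fell in FD AGRP neurons. *Plce1* (phospholipase C epsilon) rose from 14.5 to 142 normalized CPM (log2 3.29, SE 0.35, q = 1.71e-07), and *Plch1* (log2 −2.12, q = 0.0235) and *Plcb1* (log2 −1.34, q = 0.0390) fell. The median of the 14 was −1.15, that of all genes −0.02. Several of the 14 had low levels, and the part of these in the median was not tested. *Plcb2* (0.0656 normalized CPM in fed and 0.00506 in FD), *Plcg2* (2.80 and 0.399) and *Plch2* (1.63 and 0.648) were lower in FD without being called. So were *Plcb3* (7.60 and 2.26), *Plcd4* (6.94 and 2.99) and *Gna14* (6.13 and 2.86), while *Plcd3* (3.78 and 5.02) was higher in FD without being called. At higher levels, *Plcb4* (140 and 193, log2 0.47), *Plcg1* (76.6 and 96.3, log2 0.33) and *Gna11* (111 and 133, log2 0.26) were not called either. *Gnaq*, the alpha subunit of Gq, stood at 505 in fed and 499 in FD AGRP neurons (log2 −0.02, q = 0.967).

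Of 12 diacylglycerol kinases and lipases, which remove the lipid, none rose and 2 fell in FD AGRP neurons (median 0.11), among them *Dgkg* from 76.6 to 35.4 normalized CPM (log2 −1.12, SE 0.29, q = 0.0121). Of 12 other diacylglycerol-binding proteins, 2 rose and 1 fell (median −0.48). The one that fell was *Rasgrp1*, a Ras exchange factor recruited by diacylglycerol, from 717 to 301 normalized CPM (log2 −1.25, SE 0.22, q = 0.000274). In the inositol trisphosphate arm 2 of 12 rose (median 0.20), led by the inositol trisphosphate kinase gene *Itpkc* (2.30 to 12.8 normalized CPM, log2 2.47, q = 0.00845).

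Of 17 genes for priming, anchoring and adaptor proteins of PKC, 1 fell in FD AGRP neurons (median −0.15). It was *Akap5*, a scaffold that holds PKC and protein kinase A at the postsynaptic membrane, from 66.8 to 15.2 normalized CPM (log2 −2.13, SE 0.36, q = 0.000138). Of 10 PKC substrates, 1 fell (median −0.03), the membrane skeleton gene *Add3* (172 to 41.7 normalized CPM, log2 −2.04, SE 0.31, q = 3.81e-05). Among 30 other kinases of the AGC group, to which PKC belongs, 6 rose and 3 fell (median 0.15). *Mast4* rose from 183 to 966 (log2 2.402, q = 2.71e-07), *Sgk1* from 24.9 to 142 (log2 2.51, q = 0.000133) and *Stk38l* from 33.7 to 108 normalized CPM (log2 1.69, q = 0.000425), while *Rps6ka6* fell (log2 −1.02, q = 0.0182).

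In POMC neurons the same lists held 4 called genes with food deprivation. Of these, 3 were diacylglycerol-binding proteins that fell: *Rasgrp1* (289 to 122 normalized CPM, log2 −1.25, SE 0.23, q = 0.00659), *Unc13a*, which primes synaptic vesicles (232 to 114, log2 −1.03, SE 0.21, q = 0.0158), and *Rasgrp4* (6.94 to 0.0802, log2 −6.26, SE 1.42, q = 0.0368), a gene with few counts. *Rps6ka5*, an AGC kinase, rose from 18.8 to 46.5 (log2 1.31, q = 0.0207). None of the genes in the other 5 lists passed in POMC neurons by the edgeR test, where 62 of all 16513 genes did.

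**Figure D5:**
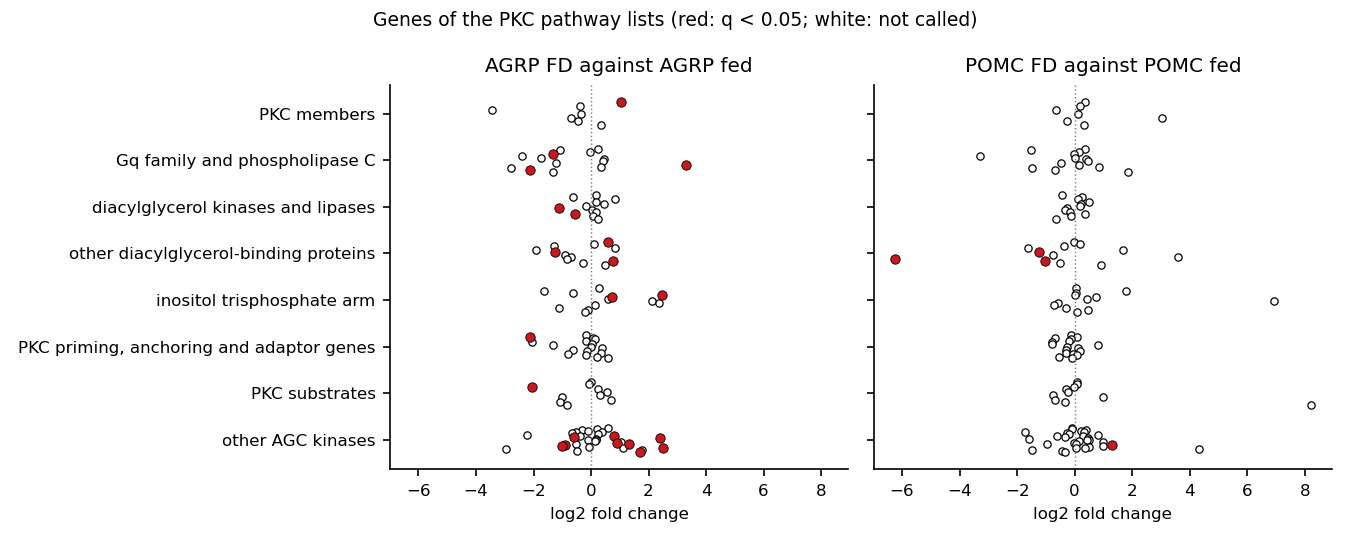
Log2 fold change (x axis) of each tested gene (points) in the PKC list and the 7 lists around it (y axis), for FD against fed AGRP (left) and POMC (right) neurons, with q under 0.05 in red. *Prkca* is the only red point of the PKC list in AGRP neurons, and the POMC panel has 4 red points in all.

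Genes of these lists called in the interaction test included *Plce1* (log2 3.13, SE 0.47, q = 8.70e-05), *Unc13a* (1.80, SE 0.29, q = 0.000171), *Akap5* (−2.21, SE 0.51, q = 0.00694) and *Add3* (−2.02, SE 0.44, q = 0.00426). In fed mice *Plch1* (46.0 in AGRP, 2.66 in POMC, log2 4.11, q = 0.000170), *Dgkb* (253 and 42.7, log2 2.56, q = 6.14e-09), *Dgkk* (1774 and 731, log2 1.28, q = 6.80e-08) and *Rasgrp1* (717 and 289, log2 1.31, q = 0.000239) were higher in AGRP than in POMC neurons, in normalized CPM. Of the phospholipase C beta genes, *Plcb1* was lower in AGRP neurons (12.6 against 49.2, q = 0.00407). *Plcb4*, another of them, was higher there (140 against 57.7, log2 1.28, q = 0.00246).

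Genes most like each member across the 21 libraries were named by Pearson correlation of log2 normalized CPM among the 8205 genes with a mean over 20 CPM in a group. Libraries of 1 group share their cell type and condition, so these values describe group differences as well as spread within groups. For *Prkca* they were *Lrrn3* (r = 0.96), *Abca5* (0.95) and *Stk32b* (0.94), with correlations within groups of 0.54, 0.75 and 0.33. For *Prkce* they were *Slc24a2* (0.91), *Rgs8* (0.90) and *Gda* (0.88), with 0.71, 0.83 and 0.63 within groups.

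For *Prkci* the genes most alike were *Cfap97* (r = 0.85), *Acat2* (0.84) and *Klhl13* (0.83), and for *Prkcb* *Celf2* (0.86), *Eif4a2* (0.76) and *Txndc16* (0.76). Those of *Prkcz* were *Vac14* (0.72), *Fosb* (0.71) and *Kif3c* (0.67), those of *Prkch* *Grsf1* (0.84), *Enc1* (0.82) and *Npm1* (0.80), and those of *Prkcd* *0610011F06Rik* (0.73), *Chst10* (0.70) and *Leprel4* (0.68). Among the members, *Prkca* and *Prkce* correlated at −0.68 over the 21 libraries and at 0.31 within groups, and *Prkce* and *Prkci* at 0.73 and 0.38.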

How the data were processed

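RNA from manually sorted neurons of 21 mice was amplified and sequenced. The authors trimmed reads with cutadapt 1.7.1, removed abundant sequences with Bowtie2 2.1.0, mapped to mm10 with STAR 2.4.0i and counted unique reads per Gencode gene with HTSeq 0.6.1p1 without strand. The deposited counts are not normalized, and the deposited TPM were made by the authors from these counts and exon lengths. The count table's 92 spike-in entries and 5 counting summary entries were left out of library sizes (reads on no gene were 25.6 to 55.3% of gene, ambiguous and unassigned reads). Gene starts in the tables count from 0 and are given here from 1.

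Genes with CPM over 1 in at least 3 libraries were scaled by TMM and fitted with edgeR 4.0.16 (R 4.3.3) in 1 quasi-likelihood model of 4 group means, with two-sided tests and Benjamini-Hochberg adjusted p-values (q) over 16513 genes. The study's own fit was limma-voom, run here as an alternative. Normalized CPM use the TMM library sizes. Intervals are normal approximations from the standard error. Scripts were tested on simulated data. The replicates are different mice, so tests measure the spread between mice. Members and lists were chosen with earlier results of these data known. Named genes were all 8 members, the highest non-neuronal marker, and the 3 genes most like each tested member. For FD against fed mice, list genes with q under 0.05 and absolute log2 fold change over 1 were named. Up to 4 per list and comparison were taken, smallest q first. For the comparisons between cell types and the interaction this rule was not applied in full, and the list genes named there are a selection. *Gnaq*, other genes of its list that were not called, and the astrocyte markers were added after their values were seen.

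Alternatives were limma-voom (limma 3.58.1), DESeq2 1.42.0, RLE factors, spike-in (ERCC) scaling, no filter, the compared groups alone, replicate, spike-in set, age and cell number terms, the stricter criteria, and each library left out. Spike-in sets were derived here from labelled volumes and cell numbers. Total count scaling, limma on log2(TPM + 1), leaving out the 2 libraries with fewest cells and moving AGRP FD replicate 2 between spike-in sets were added after seeing the data. Replicate numbers did not pair the samples.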

Additional observations from a re-analysis of the deposited data

Results flagged for a closer look

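Of 29 gene and group sets checked for 1 library standing apart from the rest of its group, 6 were marked. Chance alone marks about 1 in 20 where values are normally distributed, a rate that need not hold for *Prkcd* and *Prkch*, whose counts were near 0 in many libraries. All values are normalized CPM. *Prkcz* in AGRP fed replicate 3 was at 20.2, the nearest other fed AGRP library being at 41.7. *Prkch* was high in 1 library of each of 3 groups: AGRP fed replicate 4 at 1.90 (nearest 0.0535), AGRP FD replicate 6 at 1.12 (nearest 0.182) and POMC fed replicate 3 at 5.54 (nearest 0.513). *Prkcd* was high in POMC fed replicate 2 at 3.33 (nearest 0.353) and in AGRP FD replicate 6 at 0.298 (nearest 0.0607), the latter from 4 counts. No library was marked for *Prkca*, *Prkcb*, *Prkce* or *Prkci*.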

How the results depend on the processing

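Of 444 values recomputed under alternatives, 396 kept their direction and side of the threshold, 9 lost and 10 gained a call and 29 changed sign, and of 441 with a library left out these counts were 409, 8, 4 and 20. Values that changed sign are given here as log2 fold changes, those with a library left out as the range over the left-out libraries. No value that changed sign had q under 0.05, and the causes were not tested. An end of a range that kept its sign could pass, as *Prkch* did in fed AGRP against fed POMC neurons (−5.36, q = 0.0388). A count of called members is limited by depth for *Prkcd*, *Prkch* and *Prkcq*, which were near 3 counts in many libraries.

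FD against fed AGRP neurons had 1 called member (1700 genes called in all), 0 under spike-in scaling (97 genes), 3 under total count scaling (1637) and under limma on log2(TPM + 1) (1943), and 2 without the 2 libraries with fewest cells (44 and 50), where 1518 genes were called. Leaving out single libraries gave 1 to 2 members (2 without AGRP FD replicate 2). For FD against fed POMC neurons limma on log2(TPM + 1) gave 1 in place of 0 (68 genes in place of 62). Fed AGRP against fed POMC neurons gave 0 in place of 1 under spike-in scaling (297 genes in place of 1250) and 1 to 2 with libraries left out (2 without AGRP fed replicate 4). FD AGRP against FD POMC neurons gave 1 in place of 5 under the stricter criteria (1339 genes in place of 3064) and 2 under spike-in scaling (1117). The interaction gave 1 in place of 0 under total count scaling (1119 genes in place of 1108), 2 under limma on log2(TPM + 1) (1217), 1 without the 2 libraries with fewest cells (868), and 0 to 1 with libraries left out (1 without AGRP FD replicate 2 or POMC fed replicate 3).

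The spike-in sets were spread unevenly over the groups compared, and their part in the sign changes was not tested. Under spike-in scaling, signs changed for FD against fed POMC neurons in *Prkca* (−0.64), *Prkcb* (−0.85), *Prkce* (−0.94) and *Prkcz* (−0.71). They changed for fed AGRP against fed POMC neurons in *Prkcb* (0.063) and *Prkcz* (0.15), for FD AGRP against FD POMC neurons in *Prkcb* (0.30), *Prkce* (0.46), *Prkci* (0.34) and *Prkcz* (1.27), and for the interaction in *Prkcb* (0.24), *Prkce* (0.54) and *Prkci* (0.67).

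Other sign changes were small or in genes with few counts. *Prkch* in FD against fed AGRP neurons was 0.51 with limma-voom and −2.24 to 2.95 with libraries left out. In FD against fed POMC neurons *Prkcd* was 0.83 with the spike-in set as a block (−1.31 to 1.31 with libraries left out). In fed AGRP against fed POMC neurons, age as a covariate gave 0.055 for *Prkcb* and −0.34 for *Prkcd*, cell number gave −0.092 for *Prkcd*, and limma on log2(TPM + 1) gave 0.12 for *Prkcb* and 0.041 for *Prkcz*. With libraries left out these ranged from −0.23 to 0.012 for *Prkcb*, −0.36 to 2.04 for *Prkcd*, −5.36 to 0.65 for *Prkch* and −0.23 to 0.037 for *Prkcz*. The interaction of *Prkcz*, 0.0063, became −0.018 with limma-voom, −0.023 with DESeq2 and with RLE factors, −0.13 with the spike-in set block, −0.00388 with age, −0.00193 with cell number, −0.20 with total count scaling, −0.39 with limma on log2(TPM + 1), −0.0523 without the 2 libraries with fewest cells, and −0.18 to 0.11 with libraries left out.

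Same-numbered samples did not deviate together (correlations −0.16 to 0.06 over 10 pairs), so the numbers do not pair them. With the replicate number as a block, *Prkca* stayed the 1 called member among 1488 genes called in FD against fed AGRP neurons, where the unblocked fit called 1700. Of 210 group mean levels recomputed with other settings, 1 moved by more than the SD of its group.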
